A study of Vanessa cardui and Junonia coenia with 16 samples.

Results

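In the common buckeye butterfly Junonia coenia, 137 transcript clusters were higher in every wing labelled as an optix knockout than in any wild-type wing. A cluster is the sum of all rows of the authors' assembly table that share a TRINITY DN number and a c number. The 137 were found among 124280 such clusters, of which 46698 were above 0 in a library. To be taken, a cluster needed at least 5 FPKM (sequenced fragments per unit of transcript length and of library total) in all 4 knockout libraries. Its lowest knockout value also had to exceed its highest wild-type value by at least 1 on the log2(FPKM + 1) scale. That difference is called the gap below, and a cap of 150 clusters was not reached. The members were chosen by these knockout and wild-type values, so that contrast is described without a test, and only the difference between the wings is tested.

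RNA was measured in 8 libraries of late pupal wings at the stage named for melanin, all from animals of a laboratory colony reared at 27 °C on artificial diet with plantain leaves. There were 2 optix knockout hindwings, labelled simply as knockouts, 2 optix knockout forewings, labelled as having large defects, 2 wild-type hindwings and 2 wild-type forewings. Libraries of a group are biological replicates by their labels, and whether a hindwing and a forewing of one number came from 1 animal is not stated. The share of mutant cells in the knockout wings is not given.

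The gene optix encodes a homeodomain transcription factor of the sine oculis family. In butterfly wings it is known for directing scale cells towards ommochromes, the orange to red pigments, and its loss is known to change both pigment and structural colour. Scale cells fill with pigment late in pupal life, with melanin, the dark pigment, among the last to appear. No gene names stand in the table, and 0 of its identifiers matched a reference table of 15000 genes of the related painted lady Vanessa cardui. Functions of the members, markers of the tissue and optix itself are therefore not analysed here, and members are named by identifier only. In whole wings, a change in the share of a cell type and a change in RNA per cell cannot be told apart.

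Relative sequencing depth, read from the smallest values, was 2.13 to 3.29 in the knockouts and 1.0 to 1.58 in the wild types, with the shallowest library set to 1.0. Of 17014 clusters with a mean of at least 1 FPKM, 6.20% to 7.91% were listed at 0 in a knockout library and 12.9% to 18.6% in a wild-type library. The median cluster was 0.17 (log2) higher in the knockouts. Depth and zeros thus moved with genotype, and their part in the membership was not tested. The 137 members were 0.805% of the 17014 clusters. The mirrored rule, with the genotypes exchanged, took 128 clusters (0.752%).

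The members together made up 1.47% to 1.71% of all FPKM in the 4 knockout libraries, against 0.120% to 0.197% in the 4 wild types. Their sum was 14910 ± 3676 FPKM in knockout hindwings and 13537 ± 1530 FPKM in knockout forewings, against 1605 ± 510 FPKM in wild-type hindwings and 2167 ± 239 FPKM in wild-type forewings (SD, n = 2 each). This sum was carried by few clusters. The 19 members that averaged at least 100 FPKM in the knockouts held 81.2% of it, and the 2 most abundant held 41.1%. Of the others, 26 averaged 30 to 100 FPKM, 68 averaged 10 to 30 FPKM and 24 stayed under 10 FPKM in the knockouts.

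**Figure D1:**
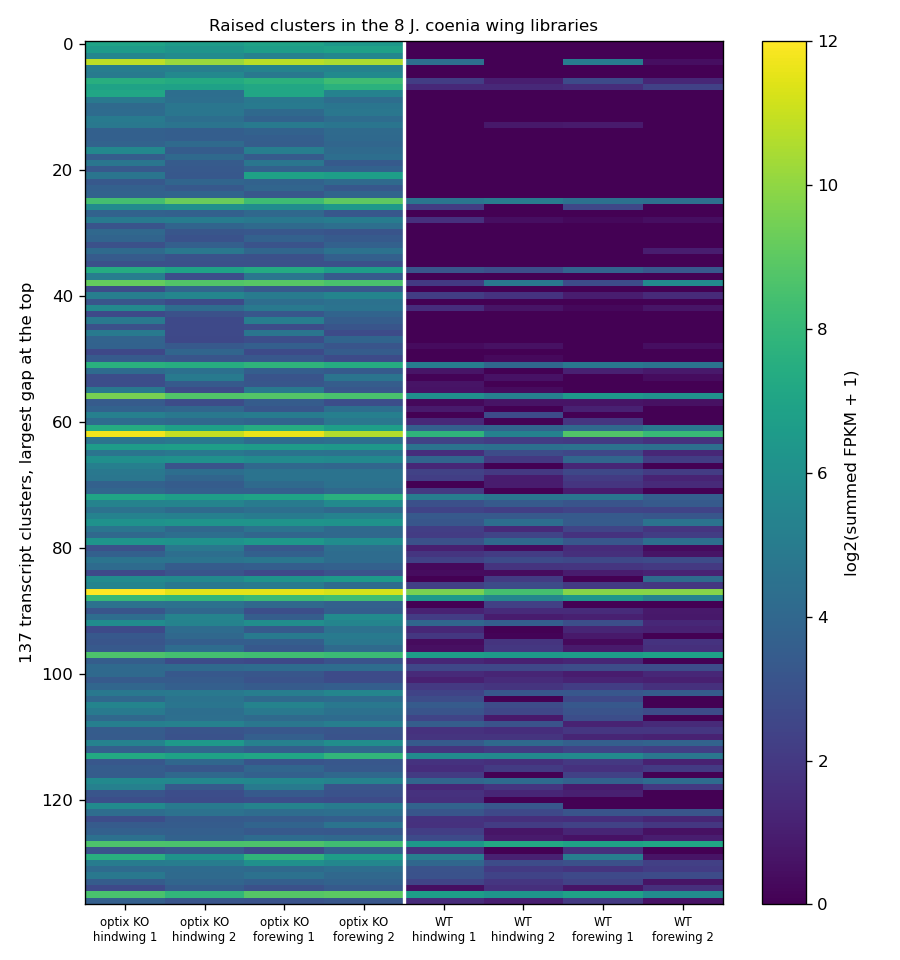
Each line is 1 of the 137 clusters, ordered by gap, and each column 1 library, with colour giving log2(summed FPKM + 1). The upper lines are dark in the wild types, where 37 clusters are listed at 0 in all 4 libraries, and the 2 brightest lines are the clusters averaging 3337 and 2515 FPKM in the knockouts.

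The difference between mean knockout and mean wild-type level of a member had a median of 2.89 in the hindwing, with a range of 1.43 to 8.32, and a median of 3.08 in the forewing, with a range of 1.18 to 7.89 (log2). Over all clusters with a mean of at least 1 FPKM the median was 0.16 in either wing. Gaps were 1 to 2 in 76 members, 2 to 3 in 29, 3 to 4 in 20 and over 4 in 12. Just inside the limit, TRINITY_DN41045_c3 had 374 and 234 FPKM in knockout hindwings and 457 and 508 FPKM in knockout forewings, against 102 and 74.0 FPKM in wild-type hindwings and 115 and 55.3 FPKM in wild-type forewings. The last cluster taken, TRINITY_DN41837_c2, was at 7.10 to 11.3 FPKM in the knockouts and 0.519 to 3.01 FPKM in the wild types. Both had a gap of 1.02. Just outside, TRINITY_DN49876_c3 (gap 0.99) and TRINITY_DN42793_c3 (gap 0.96) were at 6.05 to 7.80 FPKM and 5.77 to 8.21 FPKM in the knockouts, with highest wild-type values of 2.56 and 2.48 FPKM.

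By their wild-type levels the members fell into clusters listed at 0 throughout and clusters already present. In all, 37 were listed at 0 in all 4 wild types, 29 were above 0 in 1 to 3 of them and 71 in all 4. A listed 0 can be a failed estimate, and a gap or difference against it depends on the pseudocount of 1, as do the highest values and the medians above. Over the 71 members above 0 in all 4 wild types, the median difference was 2.22 in the hindwing and 2.26 in the forewing (log2). The 37 had lowest knockout values of 5.03 to 82.6 FPKM, with a median of 8.88 FPKM.

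The largest gap, 6.39, belonged to one of these 37. TRINITY_DN44415_c3 was at 125 and 93.8 FPKM in knockout hindwings and at 119 and 82.6 FPKM in knockout forewings, against 0 in each wild-type library. TRINITY_DN51400_c11, with a gap of 6.22, was at 93.9 and 73.5 FPKM in knockout hindwings and at 100.1 and 115 FPKM in knockout forewings, and likewise at 0 in each wild type. In both clusters the 4 knockout libraries lay within 0.65 (log2) of each other.

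The most abundant members were present in wild-type wings as well. TRINITY_DN47653_c8 ranked 34 among all clusters by its mean in the knockouts. Its values were 5047 and 2936 FPKM in knockout hindwings and at 2895 and 2470.0 FPKM in knockout forewings, against 758 and 354 FPKM in wild-type hindwings and 908 and 891 FPKM in wild-type forewings. The lowest knockout value was thus well above the highest wild type, and the wild-type hindwing 2 was lower than the other 3 wild types. TRINITY_DN37411_c2, at rank 41, had 3427 and 1994 FPKM in knockout hindwings and 3084 and 1556 FPKM in knockout forewings, against 225 and 39.5 FPKM in wild-type hindwings and 425 and 269 FPKM in wild-type forewings. In this cluster the library numbered 1 was the higher of its pair in each of the 4 groups. These 2 clusters also had the highest wild-type values of all members.

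**Figure D2:**
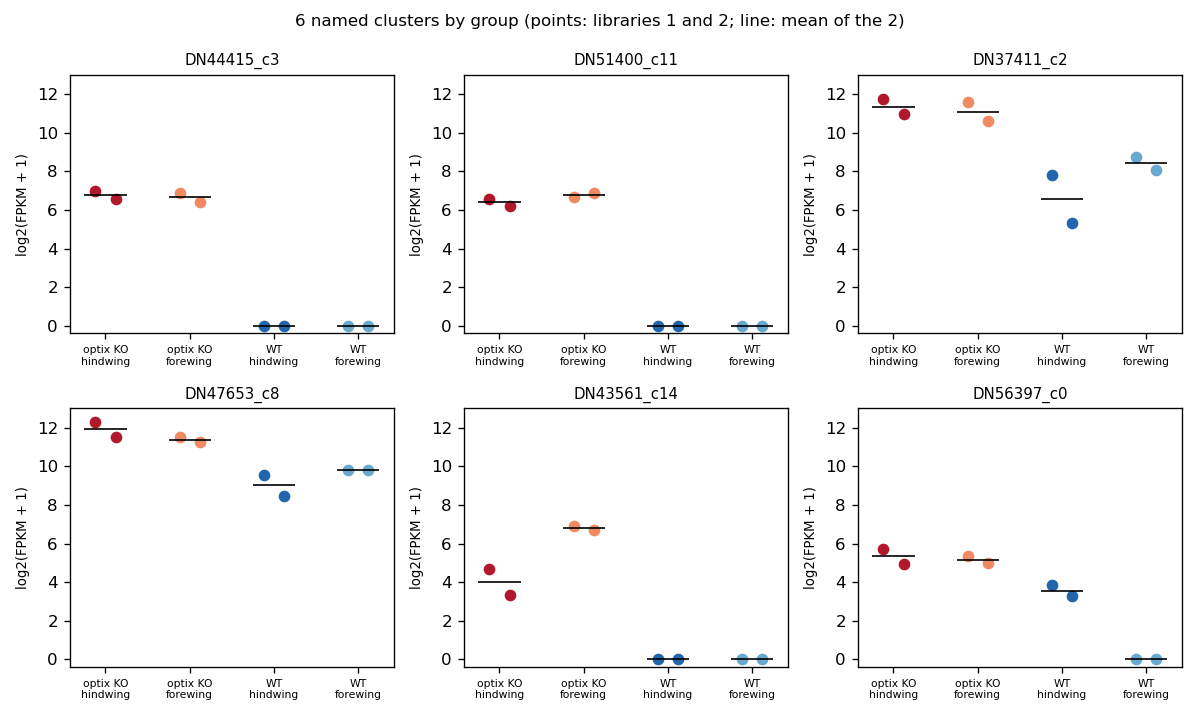
Points are libraries 1 and 2 of each group on the log2(FPKM + 1) scale, and the line is their mean. DN44415_c3 and DN51400_c11 are at 0 in all wild types, DN47653_c8 and DN37411_c2 are abundant in both genotypes, DN43561_c14 is lower in knockout hindwings than in knockout forewings, and DN56397_c0 is at 0 in wild-type forewings alone.

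Among the 4 knockout libraries a member ranged over a median of 0.70 (log2), close to the 0.67 of all 6635 clusters with at least 5 FPKM in every knockout. In 31 members this range was under 0.5 and in 36 it was at least 1. It was widest in TRINITY_DN43561_c14, at 3.61, which is described with the wings below. The next was TRINITY_DN39539_c2, which followed the library number and not the wing. It had 135 and 19.2 FPKM in knockout hindwings and 138 and 38.4 FPKM in knockout forewings, and was listed at 0 in all wild types.

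In the knockouts, such a division by number was about as frequent among the members as among the 6635 clusters. In the knockouts 8 of 137 (5.84%) were at least 1 (log2) higher in library 1 than in library 2 in both wings, and 4 (2.92%) were lower. Of the 6635 clusters 4.14% and 3.72% behaved so. In the wild types, 11 members (8.03%) were higher and 5 (3.65%) lower in library 1 in both wings, against 19.0% and 8.71% of the 6635 clusters. The rule caps the wild-type values, and this also limits how far they can differ. The 137 also include 37 members at 0 in all wild types, which cannot differ there. Among the 100 members above 0 in a wild type, the highest wild-type value was in a library numbered 1 in 66, and it was so in 51.4% of all clusters that averaged at least 1 FPKM and had a wild-type value above 0.

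The members came from 120 DN numbers, which are larger groupings of the assembly whose clusters can share sequence. Reads can be divided among such clusters, so each cluster was set beside the sum over its whole DN number. In 19 members no other cluster of the DN number was above 0. Members sat in DN numbers with a median of 5 clusters above 0, against 2 for all clusters with a mean of at least 1 FPKM, of which 38.2% were the only one of their DN number. Members were also mostly single rows: 62.8% had 1 row above 0, against 42.5% of all clusters with a mean of at least 1 FPKM. Those clusters include lower levels than the rule allows, so none of these comparisons is matched for level.

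For the other 118 members the DN sum gave a smaller difference between the genotypes, with a median of 1.47 against 3.05 for the cluster itself (log2). Members were chosen for a large gap and the DN sum mostly adds unchosen clusters, so a smaller difference could be foreseen. For the 27 members in the 10 DN numbers with at least 2 members, the added clusters include other members. The DN sum without the member itself was higher in the knockouts by a median of 0.77 (log2), and it was lower for 26 of the 118. Other members of the DN number stay in this remainder, so the choice of members also shaped that median. The DN sum kept a gap of at least 1 for 41 of the 118 and a gap between 0 and 1 for 34. All these counts are per member, so a DN sum shared by several members enters once for each of them. For 43 the knockout and wild-type libraries overlapped or met once the DN number was summed. Of the 34 members listed at 0 in all wild types with other clusters in their DN number, 3 (8.82%) kept a gap of at least 1. Of the 84 that were above 0 in a wild type, 38 (45.2%) did. The clusters listed at 0 made up a median of 13.4% of their DN sum in the knockouts, and the others 43.3%.

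**Figure D3:**
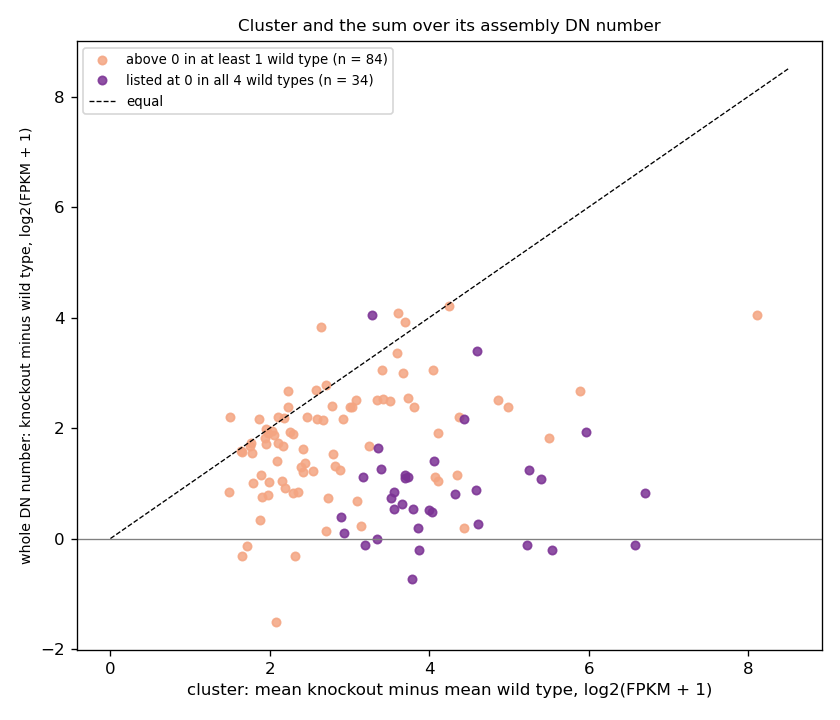
For the 118 members with other clusters in their DN number, the horizontal axis gives the cluster's mean knockout minus mean wild-type level and the vertical axis that of the whole DN number, both on the log2(FPKM + 1) scale. Most points lie below the dashed line of equality, and the median of the DN difference is 0.77 for clusters listed at 0 in all wild types and 1.82 for the others.

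Both members with the largest gaps lost it in the DN sum. For TRINITY_DN44415_c3 the DN number summed to 742 and 489 FPKM in knockout hindwings and 668 and 439 FPKM in knockout forewings, against 586 and 179 FPKM in wild-type hindwings and 540 and 187 FPKM in wild-type forewings. The wild-type libraries numbered 1 thus lay among the knockouts. For TRINITY_DN51400_c11 the DN sums were 295 and 2055 FPKM in knockout hindwings and 313 and 1304 FPKM in knockout forewings, against 232 and 2516 FPKM in wild-type hindwings and 209 and 2786 FPKM in wild-type forewings. Here every library numbered 2 was above every library numbered 1, in either genotype. The member with the largest mean difference between the genotypes, 8.10 (log2), kept its separation. TRINITY_DN50972_c26 was at 1189 to 1780 FPKM in the knockouts and 0 to 31.6 FPKM in the wild types. Its DN sum had a gap of 2.97. This cluster was singled out after its values were seen.

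The 2 largest gaps of DN sums were both against 0 in all wild types. The sum of DN37788, which holds TRINITY_DN37788_c0, was at 10.4 to 20.5 FPKM in the knockouts and 0 in all wild types, a gap of 3.51. TRINITY_DN35393_c0, the only cluster above 0 of its DN number, was at 7.82 and 13.6 FPKM in knockout hindwings and 16.8 and 19.7 FPKM in knockout forewings, and at 0 in all wild types, so its DN sum is the member itself. Going against their cluster, the 2 DN sums with the lowest knockout minus wild-type difference were lower in the knockouts. TRINITY_DN51064_c2 was at 5.13 to 10.6 FPKM in the knockouts and 0 to 1.46 FPKM in the wild types, but its DN number, of which it made up 0.213%, differed by -1.52 (log2). The DN number of TRINITY_DN46613_c7 differed by -0.73 (log2).

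Of the 120 DN numbers, 10 held at least 2 members and 4 held at least 3. These 4 were singled out after their values were seen. In DN47653, 5 of 7 clusters above 0 were members. Beside TRINITY_DN47653_c8, the cluster TRINITY_DN47653_c9 was at 576 and 421 FPKM in knockout hindwings and 464 and 381 FPKM in knockout forewings, against 3.10 and 27.2 FPKM in wild-type hindwings and 5.90 and 53.0 FPKM in wild-type forewings. The whole DN number summed to 7411 and 4454 FPKM in knockout hindwings and 4747 and 3818 FPKM in knockout forewings, against 1050.3 and 525 FPKM in wild-type hindwings and 1270 and 1150.3 FPKM in wild-type forewings. The sum had a gap of 1.59, and the 5 members made up 89.5% of it in the knockouts.

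DN45134 behaved alike, with 4 of its 6 clusters above 0 among the members. Its sum was 278 and 269 FPKM in knockout hindwings and 267 and 230.0 FPKM in knockout forewings, against 48.5 and 64.7 FPKM in wild-type hindwings and 48.8 and 65.2 FPKM in wild-type forewings, a gap of 1.80, and the 4 members made up 93.6% of it in the knockouts. The other 2 DN numbers did not keep the separation. In DN49357 the 3 members were at 0 in both wild-type libraries numbered 2 and at 0.814 to 4.79 FPKM in those numbered 1. Its sum was 1015 and 313 FPKM in knockout hindwings and 1040 and 466 FPKM in knockout forewings, against 996 and 15.4 FPKM in wild-type hindwings and 992 and 8.16 FPKM in wild-type forewings. The wild-type libraries numbered 1 again lay within the range of the knockouts. The fourth, DN51400, holds TRINITY_DN51400_c11 and 2 further members that were also listed at 0 in all wild types.

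**Figure D4:**
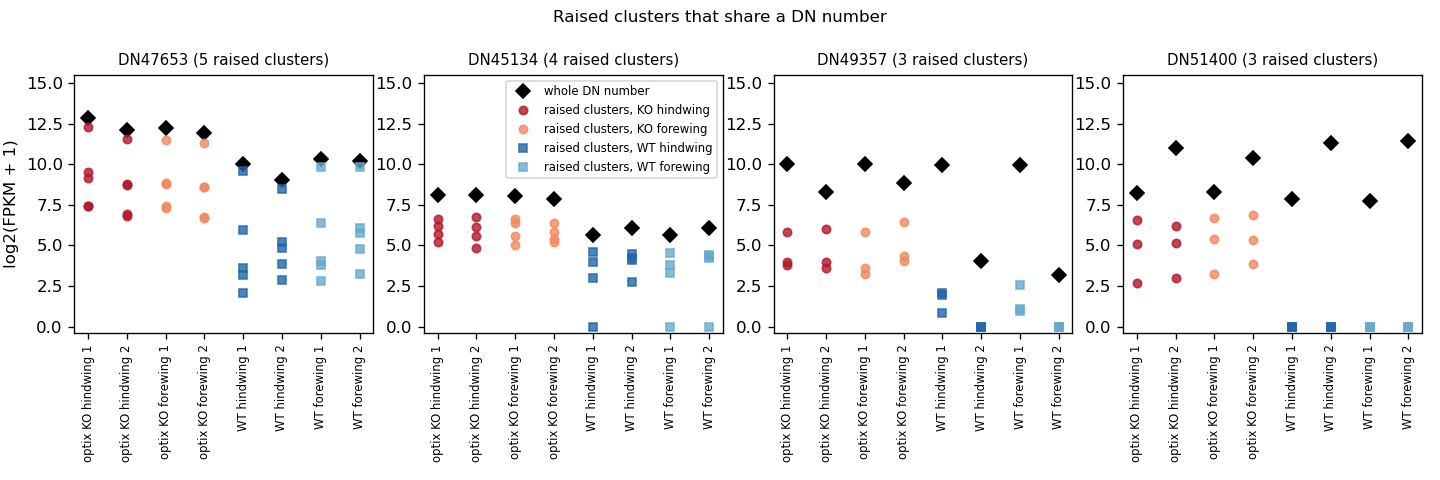
Coloured points are the members of 4 DN numbers in each library and black diamonds the sum over the whole DN number, on the log2(FPKM + 1) scale. In DN47653 and DN45134 the diamonds separate the genotypes as the members do, whereas in DN49357 and DN51400 they follow the library number in the wild types.

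Within clusters, 86 members had 1 row above 0 and 51 had 2 to 9. Of the 259 rows above 0 in all members, 203 were higher in the knockouts by at least 1 (log2) and 2 were lower by as much. The 203 include the rows of the 86 members with 1 row, where the rule itself fixes the outcome. In 18 of the 51 clusters with several rows every row was higher by at least 1, and in 14 exactly 1 row was. The cluster with most rows was TRINITY_DN46741_c6, with 9 rows, at 10.3 to 17.1 FPKM in the knockouts and 0.251 to 3.02 FPKM in the wild types. TRINITY_DN47477_c3, with 8 rows, was at 196 and 179 FPKM in knockout hindwings and 224 and 170.1 FPKM in knockout forewings, against 33.0 and 14.9 FPKM in wild-type hindwings and 27.1 and 22.6 FPKM in wild-type forewings. One of its rows held 91.5% of its knockout sum, and 1 of the 2 rows that were lower in the knockouts belongs to it.

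Whether the members differ between the wings is a question the rule did not use, although its bounds on the lowest knockout and the highest wild-type value limit how far a member can vary. Tests were limma's moderated tests on all 17014 clusters, with Benjamini-Hochberg adjustment. The knockout forewings, but not the hindwings, are labelled as having large defects, so wing and labelled defect cannot be told apart among the knockouts. This also holds where the wing differences of the genotypes are compared below. Between knockout hindwings and knockout forewings no cluster was called, among the members or overall (0 of 137 and 0 of 17014, 0%, limma). At an unadjusted p under 0.05 there were 2 of the 137 members and 83 (0.488%) of all clusters. Without 1 library at a time these counts were 1 to 3 members and 82 to 162 clusters, with 140, 143 and 162 clusters without wild-type forewing 1, forewing 2 and hindwing 2. The median member differed by 0.00 (log2, hindwing minus forewing), with a median standard error of 0.48. Even a difference of -2.83 (SE 0.52), that of TRINITY_DN43561_c14 below, was not called. A test with correct error rates would put a share of about 0.05 of unchanged clusters under an unadjusted p of 0.05. The 0.488% here, and the 2.61% and 1.46% below, are lower, so the test was conservative. The 0 calls thus do not show that the wings are alike. The hindwing and forewing libraries did not overlap in 37 members (27.0%), 17 higher and 20 lower in the hindwing, against 21.3% of all clusters. With 2 libraries per wing, such a split is common without any wing difference, and these shares are not matched for level.

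The widest knockout wing difference was that of TRINITY_DN43561_c14, with 24.4 and 8.91 FPKM in knockout hindwings and 120 and 104 FPKM in knockout forewings, and 0 in all wild types. Its difference was -2.83 (log2, SE 0.52, unadjusted p = 0.00124, adjusted p = 1, limma). TRINITY_DN49561_c1 was also lower in the hindwing, at 8.04 and 5.50 FPKM in knockout hindwings and 18.3 and 21.2 FPKM in knockout forewings, and at 0 in all wild types (-1.43, SE 0.43, adjusted p = 1, limma). In the other direction TRINITY_DN48434_c1 had 17.0 and 20.2 FPKM in knockout hindwings and 11.1 and 9.60 FPKM in knockout forewings, against 0 to 1.15 FPKM in the wild types. Its difference was 0.79 (SE 0.44, adjusted p = 1, limma). TRINITY_DN42600_c1 had 16.2 and 8.76 FPKM in knockout hindwings and 8.36 and 5.65 FPKM in knockout forewings, a difference of 0.72 (SE 0.48, adjusted p = 1, limma). That difference was 0.31 without knockout hindwing 1, 1.13 without knockout hindwing 2 and 0.47 without knockout forewing 2. None of these 4 passed the test.

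In wild-type wings, hindwing against forewing, no member and no other cluster was called either (0 of 137 and 0 of 17014, 0%, limma). At an unadjusted p under 0.05 there were 4 members, 3 higher and 1 lower in the hindwing, and 444 clusters in all (2.61%), of which the higher made up 1.48% and the lower 1.13% of those tested. The 37 members at 0 in all wild types cannot differ here. The wings did not overlap in 28 of the other 100 members, against 16.5% of the 16533 clusters above 0 in a wild type and 16.0% of all clusters. These shares are not matched for level either. Without 1 library at a time the counts at an unadjusted p under 0.05 were 2 to 12 members and 354 to 1084 clusters. Leaving out wild-type hindwing 1 or 2 gave 6 and 12 members and 670 and 1084 clusters, and leaving out wild-type forewing 1 or 2 gave 9 and 2 members and 1033 and 923 clusters. TRINITY_DN56397_c0 was nearest to the threshold. Wild-type hindwings held 13.3 and 8.69 FPKM of it, and it was listed at 0 in both wild-type forewings (unadjusted p = 0.00012, adjusted p = 0.815, limma). In the knockouts it was at 52.0 and 29.8 FPKM in hindwings and 39.9 and 30.7 FPKM in forewings, so the wings overlapped there.

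TRINITY_DN50970_c8 was also higher in wild-type hindwings, at 10.6 and 7.49 FPKM, than in wild-type forewings, at 1.22 and 1.67 FPKM (2.03, SE 0.38, adjusted p = 0.89, limma). Its knockout values were 34.8 and 37.9 FPKM in hindwings and 26.0 and 34.3 FPKM in forewings. TRINITY_DN37411_c2, among the most abundant members, was lower in both wild-type hindwings than in both wild-type forewings, with the values above, a difference of -1.82 (SE 0.84, adjusted p = 1, limma). The difference was -0.58 without wild-type hindwing 2 and -3.07 without wild-type hindwing 1. TRINITY_DN46337_c9 had 0 and 0.910 FPKM in wild-type hindwings and 2.58 and 1.66 FPKM in wild-type forewings (-1.16, SE 0.48, adjusted p = 1, limma), a difference of -0.69 without wild-type hindwing 1. Its knockout values were 12.2 and 10.3 FPKM in hindwings and 17.0 and 21.4 FPKM in forewings.

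**Figure D5:**
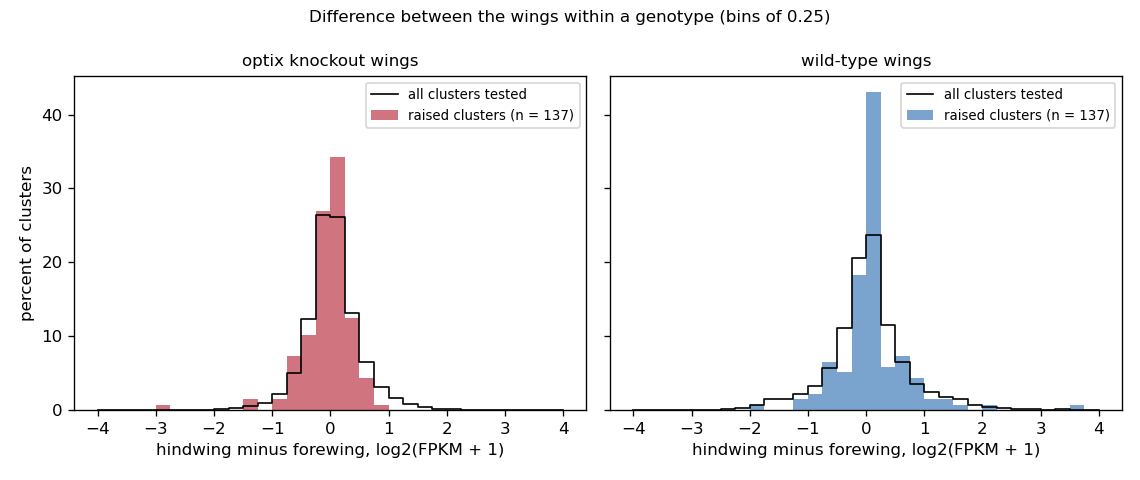
Filled bars give the percent of the 137 members in each bin of hindwing minus forewing difference (log2), and the black line that of all 17014 clusters, for knockout wings and wild-type wings. The members centre on 0 in both genotypes, and the tall wild-type bar at 0 includes the 37 clusters listed at 0 in every wild type.

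The knockout minus wild-type difference was larger in the hindwing for 70 members and larger in the forewing for 67. The difference between the wings of this quantity, tested as an interaction, called no cluster (0 of 137 members and 0 of 17014 clusters, 0%, limma). At an unadjusted p under 0.05 there were 3 members and 249 clusters (1.46%), and without 1 library at a time 2 to 8 members and 153 to 753 clusters. There were 8 members without wild-type hindwing 1 or 2 (400 and 753 clusters), 7 and 3 without wild-type forewing 1 or 2 (636 and 547 clusters), and 2 without knockout hindwing 1 or knockout forewing 2 (161 and 153 clusters). The lowest p values of members were those of TRINITY_DN56397_c0 (unadjusted p = 0.0012) and TRINITY_DN43561_c14 (unadjusted p = 0.00742), both with an adjusted p of 1 by limma. The first is listed at 0 in both wild-type forewings. The second is at 0 in all wild types, so its value in this test is its knockout wing difference given above.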

How the data were processed

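The authors deposited FPKM values per assembly row and library. Bowtie2 is named in the submitters' processing notes, and row identifiers carry the Trinity prefix. The Bowtie2 version, how FPKM was computed and whether libraries were scaled to each other is not given in the sources used here. Per the labels' protocols, poly(A) RNA was amplified with 15 PCR cycles and sequenced as 36 bp pairs. FPKM divides by the library total and keeps no read counts, so precision is taken from 2 libraries per group. Relative depth was fitted to the ratios of values under 0.6 FPKM in all 28 pairs of libraries, and the largest departure from the fit was 0.07 (log2).

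FPKM was summed per cluster and log2(sum + 1) was taken, which understates changes of low clusters. The members and lists were chosen with earlier results of these data known. Wing differences were tested with limma 3.58.1 (R 4.3.3): a model of 4 group means, moderation with a mean-variance trend, clusters with a mean of at least 1 FPKM, two-sided p-values, Benjamini-Hochberg adjustment and calls at 0.05. The code was tested on simulated data. Python 3.11.15 with pandas 2.3.3 gave the descriptions. Named members are, up to 2 for each property, those with the largest gaps, highest knockout and wild-type levels, highest levels among clusters at 0 in wild types, widest wing differences without overlap, lowest interaction p, smallest gaps on both sides of the limit, most rows, extreme DN sums and widest knockout range. The V. cardui table was not used. Alternatives were another pseudocount, filter, scaling, block or moderation, DN sums, single rows and leaving out each library.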

Additional observations from a re-analysis of the deposited data

How the results depend on the processing

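The number of clusters that meet the rule, 137, became 370 with a minimum of 1 FPKM in the knockouts, 81 with a minimum of 10 FPKM, 61 with a gap of at least 2, 209 for single rows and 56 for sums over whole DN numbers. Of these 56 DN numbers, 49 are among the 120 of the members. Without 1 library at a time it was 155 to 189, and since a rule on fewer libraries is looser, all 137 were among them each time. Median-of-ratios scaling left 113, all of them members, and quantile normalization 134, of which 131 are members. The 3 wing comparisons gave 0 calls (limma) under all alternatives run for them but one; single rows and the settings of the rule were not run for them. With genotype and number as a replicate block with an estimated correlation of 0.693, 8 clusters passed between wild-type wings, 4 in each direction, among them TRINITY_DN56397_c0 (adjusted p = 0.0366, limma); 1470 clusters had an unadjusted p under 0.05. With the replicate block as a fixed term of number, or of genotype and number, which was added after seeing the data, 0 passed (limma, 653 and 1344 at an unadjusted p under 0.05). Library 1 minus library 2 correlated across clusters at 0.65 between knockout wings and 0.66 between wild-type wings, and at 0.28 (hindwing) and 0.17 (forewing) between genotypes, but 2 numbers per group do not establish a pairing. The 37 members listed at 0 in all wild types were 37 to 40 without 1 wild-type library and 42 without both numbered 2, a setting added after seeing the data. For the 20 named members the knockout minus wild-type difference kept its sign under each setting tried. With another pseudocount or a library left out the rule itself fixes that sign, so this is no support for the difference. A pseudocount of 0.1 moved the difference of 15 of the 20 named members by more than the spread between libraries. Scaling brought the median cluster, 0.17 (log2) higher in the knockouts, to 0.08 (median of ratios) and 0.09 (quantile). FPKM gives no counts, so how far low clusters are limited by depth was not resolved.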

Other observations

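In 2 of the 120 DN numbers a member stood beside a cluster that met the mirrored rule, at 1.67%, against 0.945% of the 5289 DN numbers with a cluster of at least 5 FPKM in all knockouts. These were looked at after their values were seen. DN numbers with more clusters have more room for such a pair, and the shares were not matched for this. In DN51065 the member TRINITY_DN51065_c1 was at 44.8 and 54.2 FPKM in knockout hindwings and 38.2 and 46.7 FPKM in knockout forewings, against 0 in each wild type. TRINITY_DN51065_c2 had 2.22 and 2.69 FPKM in knockout hindwings and 4.57 and 0.315 FPKM in knockout forewings, against 21.5 and 33.0 FPKM in wild-type hindwings and 57.4 and 46.1 FPKM in wild-type forewings. The first cluster was the higher of the 2 in each knockout library and the second in each wild-type library. In DN46613 the member TRINITY_DN46613_c7 was at 8.88 to 16.6 FPKM in the knockouts and 0 in the wild types, while TRINITY_DN46613_c3 was at 0 in the knockouts and at 6.03 to 14.0 FPKM in the wild types. A further lowered cluster, TRINITY_DN46613_c5, was at 0.839 to 1.29 FPKM in the knockouts and 5.07 to 35.2 FPKM in the wild types. DN51065 held a further member, TRINITY_DN51065_c5, at 10.5 to 17.0 FPKM in the knockouts and 0 in the wild types.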
